A study of Homo sapiens with 16 samples.

Results

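The receptor that ties epithelial cells to laminin-332, its matrix ligand and the kinase that reports adhesion were followed in this set of libraries through 7 genes, taken by symbol from a count table of 56832 genes. They were ITGB4 and ITGA6 (the beta4 and alpha6 integrin subunits), CD151 (a tetraspanin partner of the integrin), PLEC (plectin), LAMA3 and LAMB3 (the alpha3 and beta3 chains of laminin-332) and PTK2 (focal adhesion kinase, FAK). All 7 passed the filter on low counts, which kept 23100 genes, LAMB3 with 0 to 22 counts in the H69 libraries. RNA came from 2 small cell lung carcinoma (SCLC) lines, H69 and H69M, each carrying by stable lentiviral infection either shNTC, a control short hairpin RNA that the labels list as wild type, or sheIF6, a hairpin against eIF6 that they list as an eIF6 knockdown. From each of these 4 combinations of line and hairpin, cytoplasmic RNA and RNA bound to polysomes were sequenced in 2 libraries each, which makes 8 groups and 16 libraries. All groups grew in the same serum-containing RPMI medium under a treatment given as normal, and the control hairpin means that every group had passed through infection. The labels do not say whether a line is a clone or how H69M was made, and they do not state that replicates were separate cultures, so p-values measure the spread between these libraries, which may be technical.

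Integrin alpha6 beta4 is the laminin receptor of the hemidesmosome, the junction by which basal epithelial cells hold on to the basement membrane. The long cytoplasmic tail of beta4 binds plectin, which hooks the receptor to keratin filaments, and eIF6, a ribosome factor that keeps large ribosomal subunits apart from small ones, was also isolated as a protein that binds this tail. The alpha6 subunit pairs instead with beta1 where beta4 is scarce, and FAK is the kinase recruited by beta1-type integrins at focal adhesions. H69 is a classic neuroendocrine SCLC line that grows as floating aggregates.

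The RefSeq promoter table held 3 of the 7 genes, and the laminin chains are shown because they share a motif and moved apart between the lines. Windows of 250 bases upstream of each start were searched on both strands for TGANTCA, the AP-1 motif, and GGAATG, the TEAD motif. A TGANTCA match stood in the window of the most downstream of the 3 listed LAMB3 starts, with its first base at -67 from it, and 2 matches stood in the single LAMA3 window. That LAMA3 window (chr18:23872770-23873019) lies inside the gene, whose first annotated base is 23689443, and 180 of its 250 bases are in annotated exons. The region upstream of the first annotated base was not searched. No match to TGANTCA was in the other LAMB3 windows or in the 2 ITGA6 windows, and GGAATG was in none of the 6. Over 34943 RefSeq windows of that length, 6.59% held TGANTCA and 11.9% held GGAATG. The sequences on the next lines are from RefSeq on GRCh38.p14, read 5′ to 3′ on the strand of the gene, with the TGANTCA match in capitals: most of the LAMB3 window on the minus strand, chr1:209651395-209651624, and the 30 bases around each LAMA3 match on the plus strand, chr18:23872884-23872913 and chr18:23872940-23872969, which fall in an annotated exon.
LAMB3: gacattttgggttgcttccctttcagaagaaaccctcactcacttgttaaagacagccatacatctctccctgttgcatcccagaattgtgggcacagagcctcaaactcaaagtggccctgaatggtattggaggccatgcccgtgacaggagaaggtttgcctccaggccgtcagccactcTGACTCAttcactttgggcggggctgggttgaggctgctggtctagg
LAMA3 far match: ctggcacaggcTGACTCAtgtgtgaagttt
LAMA3 near match: ccttcctcaccTGAGTCAggcaggcccggg
The LAMB3 match and the far LAMA3 match have the same 7 letters, and the near LAMA3 match has these letters on the other strand. A match is a description of letters only.

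On the GRCh38 build, GENCODE places ITGB4 on the plus strand of chromosome 17 (75721328 to 75757818), ITGA6 on the plus strand of chromosome 2 (172427354 to 172506282) and CD151 on the plus strand of chromosome 11 (832843 to 839831). LAMA3 lies on the plus strand of chromosome 18 (23689443 to 23956222) and LAMB3 on the minus strand of chromosome 1 (209614870 to 209652466). PLEC (143915147 to 143976734) and PTK2 (140657900 to 141002216) both lie on the minus strand of chromosome 8. Exons of CD151 share 257 bases, 6.53% of their length, with POLR2L on the opposite strand, and whether the counting used strand is not given in the sources used here. Reads in that overlap therefore cannot be assigned with certainty.

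The libraries held 36005326 to 87269772 counts, and log2 CPM (CPM being the count scaled to library size, here with edgeR's TMM factors) of the replicates of a group correlated across genes at 0.951 to 0.982. EIF6 RNA did not pass the test for a knockdown in either line, with log2 differences of -0.78 and -0.84 in H69 (cytoplasmic and polysomal) and -0.52 and -1.24 in H69M, although its libraries were lower with sheIF6 without overlap in all 4 comparisons. DESeq2 passed it in H69M polysomal RNA (adjusted p = 0.0149), as did edgeR without the H69M shNTC libraries numbered 2 (-1.54, adjusted p = 0.0406). Summed CPM of 8 neuroendocrine markers was 1952 to 3925 in H69 and 131 to 619 in H69M. Of the other marker lists, 6 adherent non-neuroendocrine genes summed to 79.2 to 253 CPM in H69 and 3417 to 5445 in H69M. The 6 fibroblast genes summed to 115 to 511 CPM in H69 and 10164 to 38440.5 in H69M, where all 6 had counts in every group. The 6 basal epithelial genes summed to 12.1 to 22.9 CPM in H69 and 353 to 1641 in H69M, with KRT14, a defining gene, at 0 in both libraries of every H69 group and of 2 H69M groups. COL17A1, also on that list, went the other way and was lower in H69M in the libraries with sheIF6. Leukocyte (0.875 to 11.4 CPM) and endothelial (0.526 to 26.98 CPM) lists were low in both lines. These lists move with the line, and their part in the member differences was not tested. Within H69M the libraries numbered 2 stood apart from those numbered 1: INSM1, a neuroendocrine factor, was at 1.15 and 28.4 CPM in shNTC cytoplasmic RNA and at 6.38 and 256 CPM in shNTC polysomal RNA.

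The question behind the comparison of the control lines is how H69M differs from H69 before eIF6 is lowered. In shNTC cytoplasmic RNA, 4 of the 7 genes were higher in H69M (ITGB4, CD151, PLEC and LAMB3), LAMA3 was lower, and ITGA6 and PTK2 did not pass the test. The line difference touched much of the transcriptome: 30.2% of the 23100 genes tested passed there, 16.2% as higher and 14.1% as lower. In shNTC polysomal RNA the same 4 genes were higher and none was lower, against 34% of all genes (18.4% higher, 15.6% lower). The median log2 difference of the 7 genes was 2.24 in cytoplasmic and 1.79 in polysomal RNA, beside -0.01 and 0.02 over all genes. With total library size as the scale in place of TMM, the median over all tested genes shifted by -0.14 in shNTC cytoplasmic and -0.22 in sheIF6 cytoplasmic RNA. These counts come from edgeR's quasi-likelihood test with Benjamini-Hochberg adjustment over all genes, at a limit of 0.05.

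ITGB4, the subunit that binds plectin and eIF6, was close to the lower end of detection in H69. The H69 libraries held 1.29 and 0.460 CPM in shNTC cytoplasmic RNA, 1.34 and 0.856 in sheIF6 cytoplasmic RNA, 1.18 and 1.04 in shNTC polysomal RNA and 2.40 and 1.46 in sheIF6 polysomal RNA. The H69M libraries, in the same order, held 14.5 and 5.77, 9.03 and 5.62, 28.3 and 10.1, and 14.9 and 12.0 CPM. Every H69M library lay above every H69 library, and in each H69M group the library numbered 1 was the higher. The log2 difference was 3.53 (SE 0.667, adjusted p = 0.00154) in shNTC cytoplasmic RNA, 11.6-fold, and 4.11 (SE 0.683, adjusted p = 0.000628) in shNTC polysomal RNA, 17.3-fold. It depended on single libraries: the cytoplasmic value was 2.72 without H69M shNTC replicate 1 and 4.46 without H69 shNTC replicate 1, and the polysomal value was 3.18 without H69M shNTC replicate 1. With the H69M shNTC libraries numbered 2 left out, those with the higher INSM1, the values were 4.05 and 4.67.

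ITGA6, the alpha subunit that pairs with either beta4 or beta1, did not pass between the control lines. In H69 its libraries held 27.8 and 37.7 CPM (shNTC cytoplasmic), 49.8 and 43.6 (sheIF6 cytoplasmic), 20.5 and 21.8 (shNTC polysomal) and 40.5 and 23.9 (sheIF6 polysomal). In H69M they held 22.1 and 18.4, 7.44 and 11.5, 24.5 and 17.9, and 13.0 and 12.2 CPM in that order. The control groups did not overlap in cytoplasmic RNA but did in polysomal RNA. The log2 difference between the control lines was -0.69 (SE 0.305, adjusted p = 0.105) in cytoplasmic RNA and 0.00 (95% interval -0.65 to 0.66) in polysomal RNA.

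CD151 binds alpha6 and alpha3 integrins and holds them in tetraspanin-rich membrane domains. Its H69 libraries held 39.8 and 37.8 CPM (shNTC cytoplasmic), 29.04 and 35.4 (sheIF6 cytoplasmic), 91.0 and 96.9 (shNTC polysomal) and 67.3 and 62.3 (sheIF6 polysomal). The H69M libraries held 168 and 333, 423 and 249.6, 180.3 and 469, and 345 and 355 CPM in that order. All H69M libraries were above all H69 libraries, and of the H69M control libraries the one numbered 2 was the higher in both fractions. The log2 difference was 2.69 (SE 0.428, adjusted p = 0.000468) in shNTC cytoplasmic and 1.79 (SE 0.414, adjusted p = 0.00538) in shNTC polysomal RNA. The polysomal value was 0.94 without H69M shNTC polysomal replicate 2 (adjusted p = 0.076), and it was 1.74 (adjusted p = 0.0543) without the H69 shNTC libraries numbered 1.

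PLEC encodes plectin, the cytolinker between beta4 and intermediate filaments, and had the smallest standard errors of the 4 genes that were higher. It held 45.9 and 36.8 CPM in H69 shNTC cytoplasmic RNA, 40.8 and 32.1 in sheIF6 cytoplasmic RNA, 37.9 and 33.3 in shNTC polysomal RNA and 39.9 and 33.6 in sheIF6 polysomal RNA. In H69M the same groups held 209.5 and 182, 174 and 203, 508 and 687, and 749 and 645 CPM. H69 stayed within 32.1 to 45.9 CPM in all 8 libraries, while H69M fell into a cytoplasmic and a higher polysomal level. The line difference was a log2 of 2.24 (SE 0.236, adjusted p = 2.2e-05) in shNTC cytoplasmic and 4.07 (SE 0.255, adjusted p = 5.69e-07) in shNTC polysomal RNA, 4.74-fold and 16.8-fold.

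**Figure D1:**
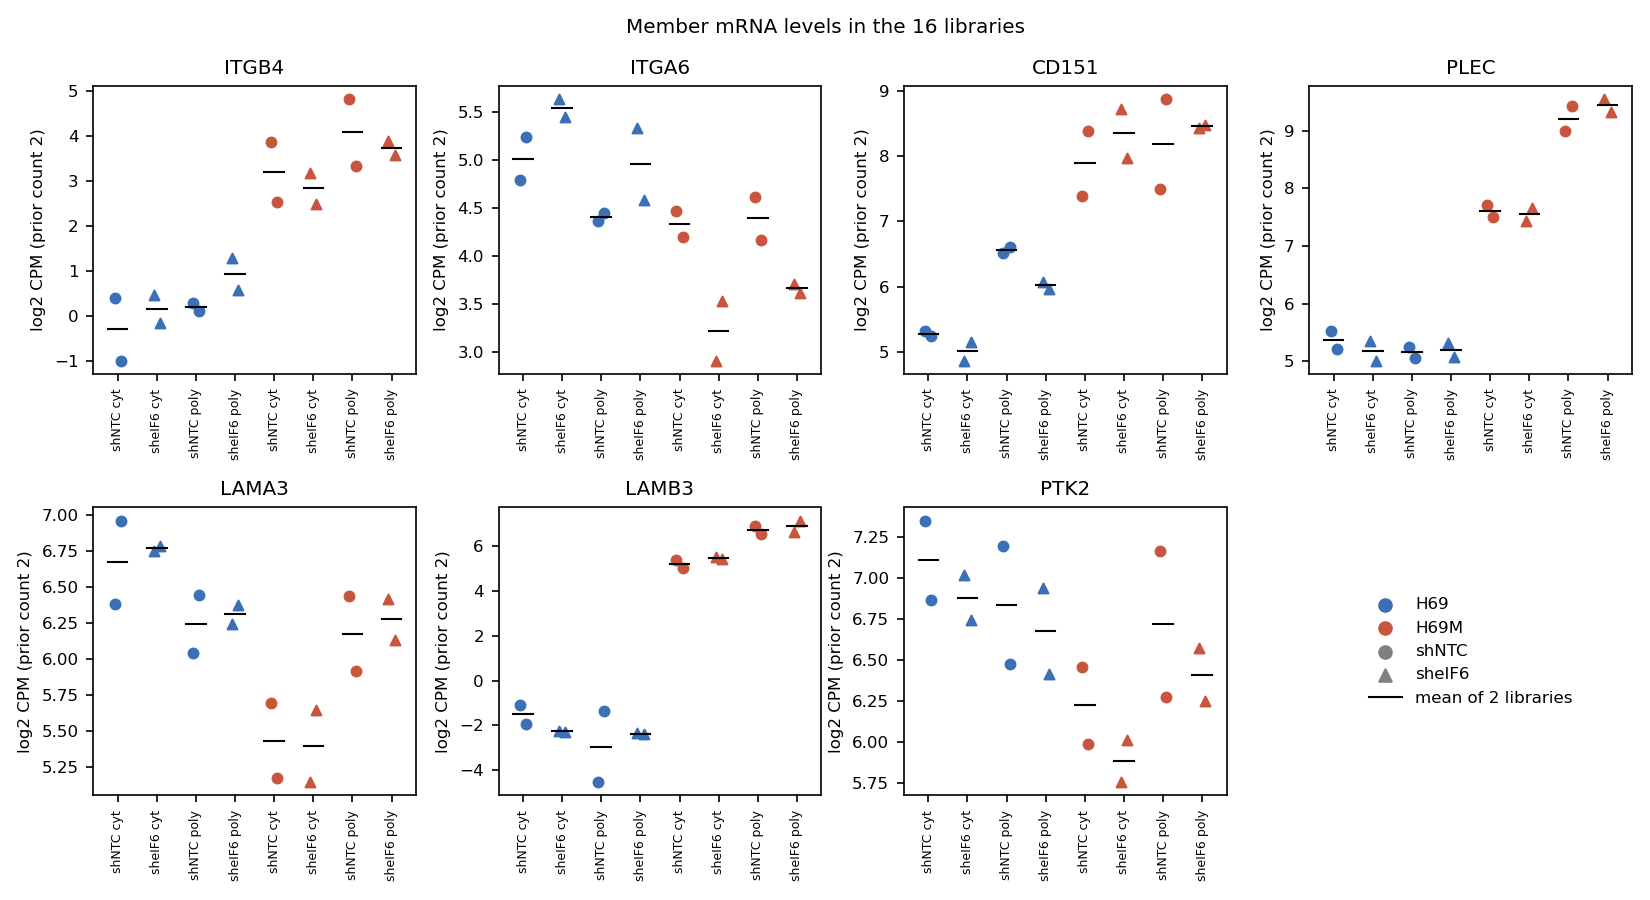
Levels of the 7 genes in every library, as log2 CPM by group, 1 panel per gene; each point is a library, and groups are ordered by line, hairpin and fraction. ITGB4, CD151, PLEC and LAMB3 separate the 2 lines in all 8 libraries of each, while ITGA6, LAMA3 and PTK2 lie closer together.

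The laminin chains parted most. LAMB3, the beta3 chain, was nearly silent in H69, with 0.429 and 0.220 CPM in shNTC cytoplasmic, 0.165 and 0.163 in sheIF6 cytoplasmic, 0 and 0.346 in shNTC polysomal and 0.151 and 0.146 in sheIF6 polysomal RNA, from 0 to 22 counts a library. In H69M it held 41.4 and 32.3, 45.7 and 42.6, 122 and 92.9, and 99.7 and 142 CPM in the same order. No H69 library came near the lowest H69M library. The log2 difference was 6.81 (SE 0.665, adjusted p = 1.48e-05) in shNTC cytoplasmic RNA, 112-fold, and 9.23 (SE 0.749, adjusted p = 4.45e-06) in shNTC polysomal RNA. The polysomal fold rests on 0 and 14 counts in H69: it was 8.27 without the H69 library at 0 counts, and 15.31 when that library was the only H69 one left, a fitted value that depends on the prior count and is no bound.

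LAMA3, the alpha3 chain that carries the integrin-binding end of laminin-332, was the more abundant of LAMA3 and LAMB3 in H69. Its H69 libraries held 83.1 and 124 CPM (shNTC cytoplasmic), 108 and 110.1 (sheIF6 cytoplasmic), 65.8 and 86.9 (shNTC polysomal) and 75.7 and 82.9 (sheIF6 polysomal). Its H69M libraries held 51.6 and 36.1, 35.3 and 49.97, 86.5 and 60.2, and 85.4 and 70.1 CPM. Cytoplasmic LAMA3 was lower in H69M without overlap, and polysomal LAMA3 overlapped. The cytoplasmic log2 difference was -1.24 (SE 0.285, adjusted p = 0.00543), which left H69M at 42.2% of H69, and the polysomal one was -0.06 (95% interval -0.67 to 0.55). The cytoplasmic call was lost without H69 shNTC cytoplasmic replicate 2 (-0.92, adjusted p = 0.0671) or H69M shNTC cytoplasmic replicate 2 (-1.01, adjusted p = 0.0568).

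Per kilobase of exon, LAMB3 was 1.62% and 0.554% of LAMA3 in the H69 shNTC cytoplasmic libraries and 252% and 280.4% in the H69M ones. Thus LAMA3 had the higher level per kilobase of these chains in H69, and LAMB3 had it in H69M.

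Ratios of the receptor subunits are given on the same scale. ITGB4 per kilobase was 4.48% and 1.18% of ITGA6 in H69 shNTC cytoplasmic RNA and 63.5% and 30.4% in H69M. ITGB1, the other partner of alpha6, was far above ITGA6 per kilobase in both lines, 8.19 and 4.67 times in H69 and 35.6 and 68.5 times in H69M. ITGA3, the alpha subunit of the other laminin-332 receptor, was at 0.929 and 0.816 times ITGA6 in H69 and at 36.8 and 46.3 times in H69M. ITGB1 (log2 2.34, SE 0.396, adjusted p = 0.000715) and ITGA3 (log2 4.88, SE 0.271, adjusted p = 3.93e-07) were both higher in H69M. So RNA for alpha3 and beta1 exceeded RNA for alpha6 and beta4 in H69M on this scale, and protein was not measured.

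**Figure D2:**
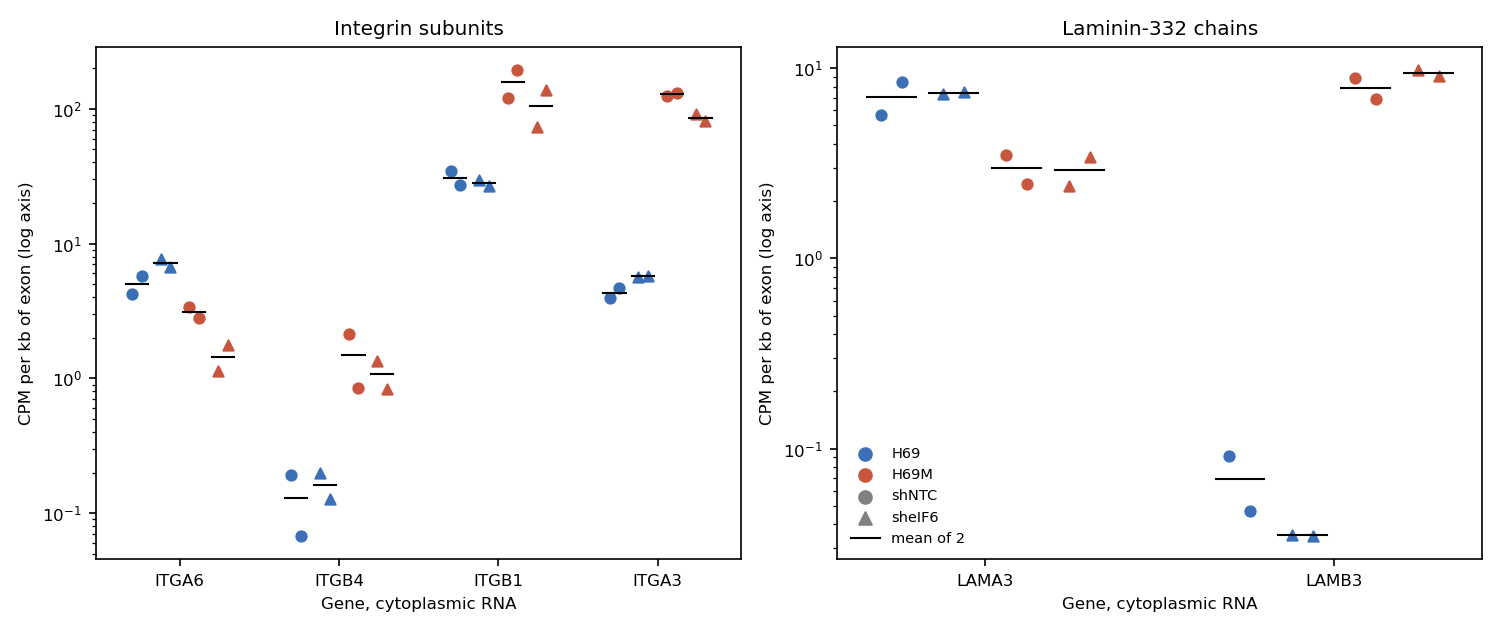
CPM per kilobase of exon (log axis) in cytoplasmic RNA for the integrin subunits ITGA6, ITGB4, ITGB1 and ITGA3 and the laminin-332 chains LAMA3 and LAMB3, 1 point per library. In H69M, ITGB1 and ITGA3 lie far above ITGA6 and ITGB4, and LAMB3 lies above LAMA3, which lies above LAMB3 in H69.

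PTK2, the gene of FAK, held 163 and 116 CPM in H69 shNTC cytoplasmic RNA, 129.6 and 107 in sheIF6 cytoplasmic RNA, 146 and 89.0 in shNTC polysomal RNA and 122 and 85.3 in sheIF6 polysomal RNA. The H69M groups held 87.7 and 63.5, 53.9 and 64.4, 143 and 77.3, and 95.01 and 76.0 CPM. Cytoplasmic RNA separated the lines, and polysomal RNA did not. The control difference of -0.89 (SE 0.338, adjusted p = 0.0653) missed the limit in cytoplasmic RNA, and with the replicate number as a block within each line it passed as lower (-0.88, adjusted p = 0.0118), as 37.5% of all genes did in either direction. For a line difference the error of the block leaves out the spread between pairs of same-numbered libraries, so its smaller p is no firmer call. In polysomal RNA the control difference was -0.09 (adjusted p = 0.851).

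Ordered per kilobase in H69 shNTC cytoplasmic RNA, the means (± SD, n = 2) were PTK2 10.2 ± 2.39, CD151 9.85 ± 0.352, LAMA3 7.07 ± 1.99, ITGA6 5.01 ± 1.08, PLEC 2.43 ± 0.377, ITGB4 0.129 ± 0.0867 and LAMB3 0.0693 ± 0.0316 CPM per kilobase. PTK2 and CD151, LAMA3 and ITGA6, and ITGB4 and LAMB3 were neighbours whose SDs overlapped. In H69M the order was CD151 63.6 ± 29.6, PLEC 11.5 ± 1.13, LAMB3 7.86 ± 1.38, PTK2 5.50 ± 1.24, ITGA6 3.10 ± 0.404, LAMA3 2.99 ± 0.747 and ITGB4 1.50 ± 0.917. There LAMB3 and PTK2, ITGA6 and LAMA3, and LAMA3 and ITGB4 overlapped. On this scale LAMB3 moved from last to the third place, and ITGB4 was last in H69M although it was higher there than in H69. These levels divide by the union of annotated exons, and with the longest transcript instead PTK2 would stand at 28.2 and 15.3 and CD151 at 20.9 and 135 in the lines, which puts PTK2 above PLEC (12.9) and LAMB3 (8.56) in H69M and LAMB3 in the fourth place.

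The comparison of the lines carrying sheIF6 used libraries other than the controls. They came from the same 2 lines and shared 1 fit with the controls, and same-numbered libraries of a line deviated together. The comparison is therefore no independent repeat. ITGB4 (log2 2.74 cytoplasmic, 2.80 polysomal), CD151 (3.38, 2.43), PLEC (2.37, 4.25) and LAMB3 (8.05, 9.64) were again higher in H69M in both fractions. The adjusted p-values were 0.00624 and 0.0048 for ITGB4 and at most 0.000827 for the other 3 genes. In cytoplasmic RNA 3 genes were lower, ITGA6 (-2.30, SE 0.318, adjusted p = 0.000171), LAMA3 (-1.35, SE 0.286, adjusted p = 0.00324) and PTK2 (-0.998, SE 0.339, adjusted p = 0.0397), so all 7 passed there, against 31.5% of all genes (16.9% higher, 14.6% lower). In polysomal RNA ITGA6 alone was lower (-1.35, SE 0.309, adjusted p = 0.0047), against 36.2% of all genes in either direction (19% higher, 17.3% lower), while LAMA3 (-0.03) and PTK2 (-0.28) did not pass. Several of these calls rested on single libraries. Cytoplasmic PTK2 missed the limit without any single library of either cytoplasmic sheIF6 group (adjusted p = 0.0794 to 0.21) or of the H69M polysomal one (0.0513 and 0.0517). ITGB4 missed it without H69 sheIF6 replicate 2 of the fraction concerned (adjusted p = 0.0645 cytoplasmic, 0.0502 polysomal), and polysomal ITGA6 without H69 sheIF6 polysomal replicate 1 (-0.93, adjusted p = 0.0635). In bulk RNA, fewer cells of a type and less RNA per cell cannot be told apart.

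**Figure D3:**
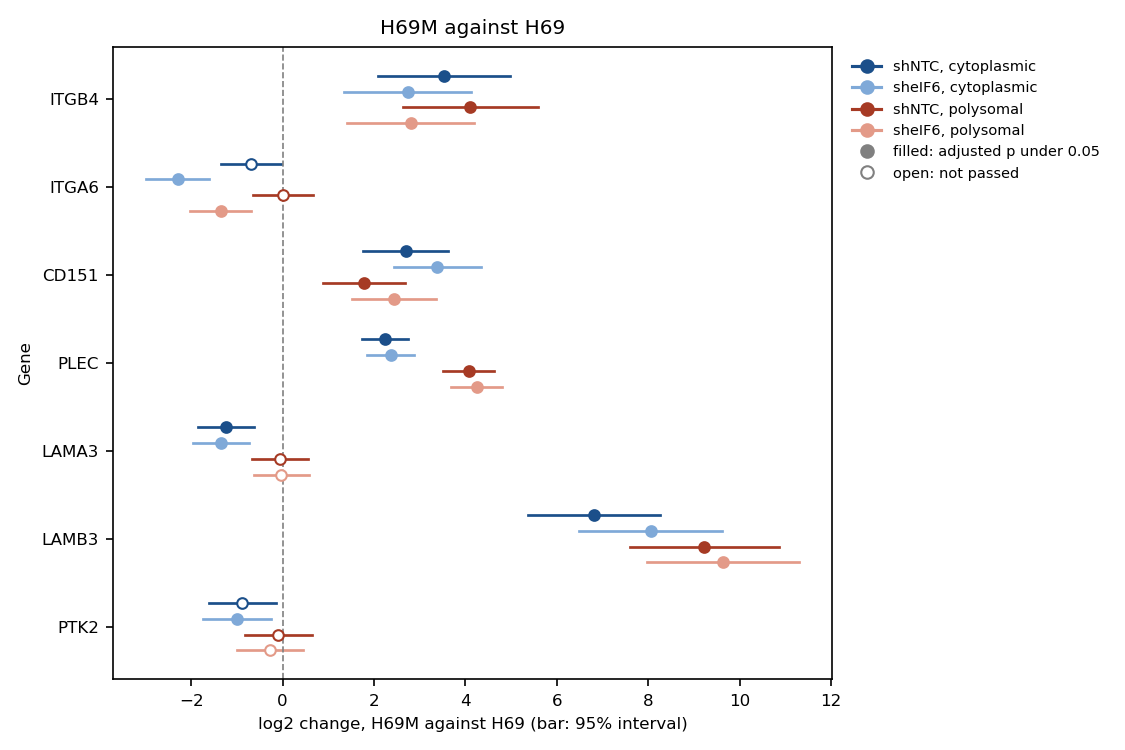
Log2 difference of H69M over H69 for the 7 genes in the 4 settings of hairpin and fraction, with 95% intervals; filled points passed the adjusted limit. ITGB4, CD151, PLEC and LAMB3 are filled above 0 in all 4, and ITGA6, LAMA3 and PTK2 lie at or below 0.

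Genes around the receptor and the kinase were counted from lists. Of the 9 hemidesmosome and laminin-332 partners listed, 8 were tested and 4 were higher in H69M in shNTC cytoplasmic RNA, ITGA3 and ITGB1 among them, with a list median of 2.03 and none lower, beside 16.2% of all genes higher and 14.1% lower, the shares for all lists in that comparison. With the replicate block 5 were higher and 2 lower, beside 19.5% and 17.9% of all genes with that block. In shNTC polysomal RNA 6 of 8 were higher and none lower, beside 18.4% and 15.6% of all genes. The block gave 6 higher and 2 lower there, beside 21.4% and 20.1% of all genes. Among the higher was DST (2.00, adjusted p = 0.00043), whose epithelial isoform is the other plakin of the hemidesmosome. COL17A1, the transmembrane collagen of the hemidesmosome, held 3.40 and 6.22 CPM in H69 and 1.72 and 0.185 in H69M shNTC cytoplasmic RNA (-2.33, adjusted p = 0.0519, and 0.00134 with the block). Here and in the block counts above, the error of the block leaves out the spread between pairs of same-numbered libraries. With sheIF6, the cytoplasmic partner counts were 3 higher and 2 lower (16.9% and 14.6% of all genes), and the polysomal ones 5 higher and 2 lower (19% and 17.3%). The lower ones were COL17A1 (-4.72, adjusted p = 0.00229, and -4.43, adjusted p = 0.00287) and FERMT1 (-2.34, adjusted p = 0.00722, and -1.75, adjusted p = 0.0265), a kindlin that activates integrins. The remaining counts of this paragraph are for shNTC cytoplasmic RNA, where 16.2% of all genes were higher and 14.1% lower. Of the other laminin chains, 4 of 9 were higher and none lower, led by LAMB2 (5.36, adjusted p = 8.89e-07), with LAMC1 (2.61), LAMA4 (2.58) and LAMB1 (1.99). Of 4 tested genes that process laminin-332, 3 were higher, among them BMP1 (3.09, adjusted p = 7.38e-06), a protease that trims laminin chains. Of 6 tetraspanins, 5 were higher, CD9 by 4.87 and CD82 by 3.31.

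The FAK complex was the largest list. In shNTC cytoplasmic RNA 13 of its 24 genes were higher in H69M and 2 were lower, with a median log2 of 1.03 beside -0.01 over all genes, of which 16.2% were higher and 14.1% lower. Those higher held the adaptors PXN (1.49, adjusted p = 0.000929), BCAR1 (2.05, adjusted p = 9.35e-05) and NEDD9 (6.66, adjusted p = 6.98e-05). They also held VCL (4.38), ZYX (4.32) and TLN1 (2.07), which link integrins to actin. The lower genes were PTK2B (-3.73, adjusted p = 8.08e-05), the kinase most like FAK, and SRC (-0.95, adjusted p = 0.0173), which phosphorylates FAK. The list of alpha6 beta4 signalling genes was split, with 7 of 20 higher, among them ERBB2 (3.93), SHC1 (3.40) and EGFR, at 0.176 and 0 CPM in H69 against 109 and 122 CPM in H69M, and 6 lower, among them IRS2 (-3.14, adjusted p = 9.94e-05). In shNTC polysomal RNA the counts were 14 higher and 1 lower of 24 for the FAK complex and 8 higher and 5 lower of 20 for the signalling list, beside 18.4% and 15.6% of all genes. With sheIF6, the cytoplasmic FAK complex counts were 9 higher and 1 lower of 24 (16.9% and 14.6% of all genes), and the polysomal ones 14 higher and 1 lower (19% and 17.3%).

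The polysomal fraction was set against cytoplasmic RNA of the same cells to ask how much of each message was on polysomes; the difference is relative to the average message and is called loading here. Of the 7 genes, PLEC alone passed, in both H69M comparisons: its loading was a log2 of 1.61 (SE 0.231, adjusted p = 0.00484) in H69M shNTC and 1.89 (SE 0.233, adjusted p = 0.00453) in H69M sheIF6. Among all genes 4.7% and 4.17% passed in those comparisons. In H69 the loading of PLEC was -0.22 in shNTC and 0.01 in sheIF6, where 0 of 7 genes passed against 11.8% and 9.66% of all genes. Every polysomal PLEC library of H69M, at 508 to 749 CPM, was above every cytoplasmic one, at 174 to 209.5. The difference between the lines in PLEC loading was 1.82 (SE 0.322, unadjusted p = 8.16e-05, adjusted p = 0.167) and did not pass the limit. At that comparison 0 genes passed in edgeR with 2127 at an unadjusted p below 0.05, and DESeq2 passed 194 genes (0.84%), PLEC among them. The PLEC call in H69M shNTC was lost without the H69M shNTC libraries numbered 2 (1.28, adjusted p = 0.181), without cytoplasmic replicate 2 alone (1.52, adjusted p = 0.0512), and when H69M was fitted alone (1.61, adjusted p = 0.0683), as was that in sheIF6 (1.89, adjusted p = 0.0762).

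The other members did not pass in the edgeR fit over all 16 libraries without a block. Of 27 settings, that fit among them, CD151 in H69 shNTC passed in 8 and LAMB3 in H69M shNTC in 6. In H69M the loading of LAMB3 was 1.54 in shNTC (adjusted p = 0.1, and 0.0438 with the replicate block) and 1.45 in sheIF6 (adjusted p = 0.13). LAMA3 had 0.74 (adjusted p = 0.153) and 0.87 (adjusted p = 0.108) in H69M against -0.44 and -0.46 in H69. CD151, by contrast, had its larger values in H69, 1.28 in shNTC (adjusted p = 0.0612, and 0.0393 with the replicate block) and 1.007 in sheIF6 (adjusted p = 0.146), beside 0.37 and 0.06 in H69M. With the block the share of all genes that passed was 18.9% in H69 shNTC and 11.1% in H69M shNTC. ITGB4, ITGA6 and PTK2 did not pass in any of the 4 comparisons, with values from -0.63 to 0.92. Of the listed partners in H69M shNTC cells, 2 of 8 hemidesmosome genes, 1 of 9 other laminin chains and 3 of 24 FAK complex genes were higher on polysomes, beside 2.16% of all genes. Among them were ITGA3 (1.06, adjusted p = 0.0244), LAMB2 (1.33, adjusted p = 0.0239), TLN1 (1.41, adjusted p = 0.00857), TNS3 (1.36, adjusted p = 0.0108) and SRC (1.07, adjusted p = 0.0413). Of the 24 FAK complex genes 1, RB1CC1, was lower (-1.88, adjusted p = 0.0167), beside 2.54% of all genes. In H69 shNTC cells 3 of 6 tetraspanins (CD63, CD81 and CD82) and 3 of 5 eIF6 partners (EIF6, RACK1 and SBDS) were higher. There 2 FAK complex genes were higher and 1 lower, and 1 signalling gene was higher and 1 lower, beside 6.63% of all genes higher and 5.2% lower. Scaled by total library size in place of TMM, the median of all genes moved by -0.35 in H69 shNTC and -0.25 in H69M shNTC, so loading is read relative to that median.

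**Figure D4:**
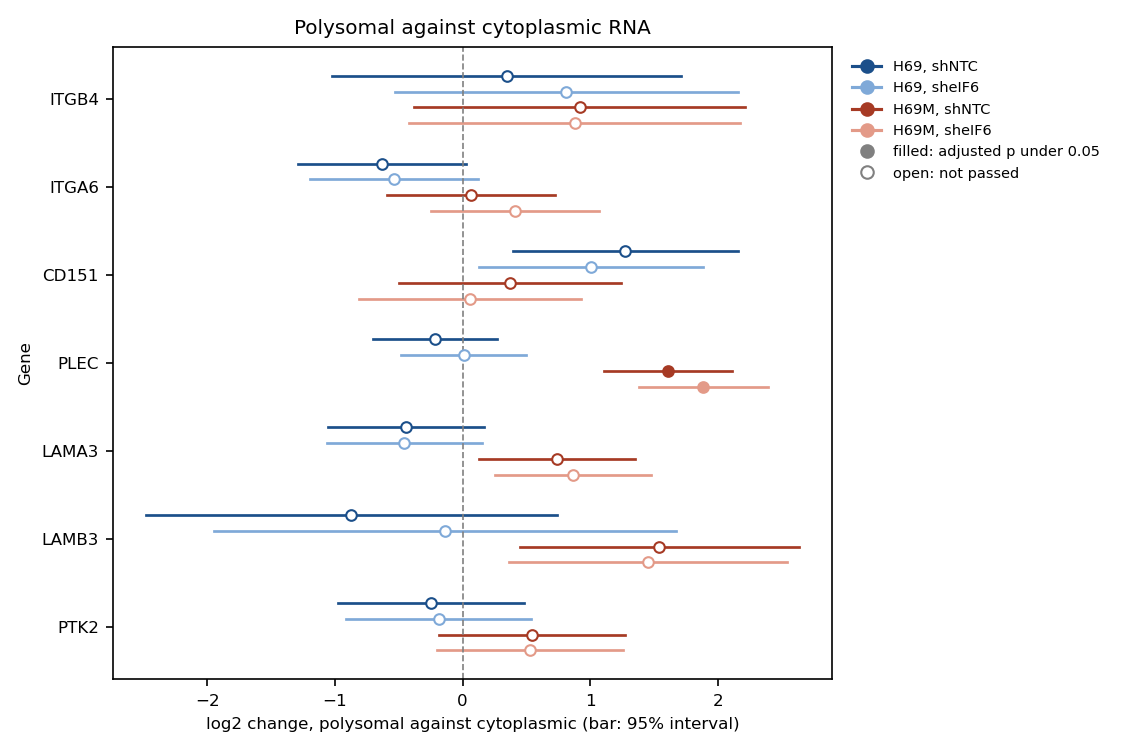
Log2 difference of polysomal over cytoplasmic RNA for the 7 genes, by line and hairpin, with 95% intervals; filled points passed the adjusted limit. PLEC in H69M, at 1.61 and 1.89, holds the filled points.

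The knockdown comparison asks what lowering eIF6, the partner of the beta4 tail, does to these RNAs. None of the 7 genes passed in any of the 4 comparisons of sheIF6 with shNTC. Few genes passed at all in edgeR: 0% in H69 cytoplasmic RNA, 0.00433% in H69 polysomal RNA, 0.156% in H69M cytoplasmic RNA and 0.0649% in H69M polysomal RNA. At an unadjusted p below 0.05 the counts were 696, 956, 2537 and 1882 genes, and DESeq2 passed 78, 92, 458 and 336 genes.

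ITGA6 showed the lowest unadjusted p of the 7 genes in H69M. Its cytoplasmic libraries went from 22.1 and 18.4 CPM with shNTC to 7.44 and 11.5 with sheIF6, without overlap, a log2 difference of -1.09 (SE 0.307, 95% interval -1.76 to -0.43, unadjusted p = 0.00359, adjusted p = 0.23). DESeq2, where 1.98% of all genes passed, gave -1.10 with an adjusted p of 0.0405, and the replicate block in edgeR gave an adjusted p of 0.122. Polysomal ITGA6 in H69M had -0.75 (adjusted p = 0.549), also without overlap. Non-overlap under knockdown was not particular to ITGA6 in H69M. With sheIF6 in H69, ITGA6 was higher and CD151 lower in both fractions, polysomal ITGB4 was higher and cytoplasmic LAMB3 was lower, all without overlap. Cytoplasmic LAMB3 in H69M was higher without overlap. The share of all genes without overlap was not counted. The summed CPM of the 6 basal epithelial genes in the same H69M groups also differed without overlap. It was 1004 and 929 with shNTC against 648 and 353 with sheIF6 in cytoplasmic RNA. In polysomal RNA it was 1469 and 1641 against 518 and 740.2. KRT14 had no counts in H69M shNTC cytoplasmic and sheIF6 polysomal RNA, and DSG3 had none in the latter. The sum therefore does not describe each gene of the list, and its part in the ITGA6 values was not tested. In H69 the ITGA6 values were 0.51 (95% interval -0.14 to 1.17) and 0.61 (95% interval -0.05 to 1.27). The difference of the knockdown effect between the lines was -1.61 (SE 0.431, adjusted p = 0.519) in cytoplasmic and -1.36 (SE 0.431, adjusted p = 0.697) in polysomal RNA and did not pass, against 0.0303% and 0.00433% of all genes.

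ITGB4 under knockdown had 0.33 (95% interval -1.03 to 1.68) and 0.79 (95% interval -0.56 to 2.15) in H69 and -0.47 (95% interval -1.76 to 0.82) and -0.51 (95% interval -1.80 to 0.78) in H69M. Each of these 4 intervals holds 0, so neither a rise nor a fall of ITGB4 was detectable with these libraries. The H69M values turned to 0.35 without H69M shNTC cytoplasmic replicate 1 and to 0.42 without H69M shNTC polysomal replicate 1, and the H69 cytoplasmic value ranged from -0.23 to 1.25 with 1 library left out. PLEC was the most narrowly bounded, at -0.06 (95% interval -0.54 to 0.43) in H69M cytoplasmic and 0.22 (95% interval -0.27 to 0.71) in H69M polysomal RNA. LAMA3 had -0.04 (95% interval -0.65 to 0.57) and 0.08 (95% interval -0.52 to 0.69) there, and LAMB3 had 0.26 and 0.17. CD151 had 0.43 and 0.11, and PTK2 -0.35 and -0.37. In H69 cytoplasmic and polysomal RNA the values were -0.27 and -0.54 for CD151, -0.18 and 0.04 for PLEC and 0.07 and 0.05 for LAMA3. They were -0.98 and -0.24 for LAMB3, which had few counts in H69, and -0.24 and -0.18 for PTK2. CD151 in H69M depended on the control library chosen: without the H69M shNTC libraries numbered 2 it was 1.012 (adjusted p = 0.154) in cytoplasmic and 0.96 (adjusted p = 0.186) in polysomal RNA.

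Among the listed partners, CD82, a tetraspanin, was lower under knockdown in H69M, by -2.38 (adjusted p = 0.0147) in cytoplasmic and -2.20 (adjusted p = 0.0329) in polysomal RNA, and no other listed partner passed. Of all genes, 0.156% and 0.0649% passed there in either direction. The lists were chosen with earlier results of these data known, so the CD82 call is a description and no independent finding. With the replicate block, 1 of the 8 tested hemidesmosome and laminin-332 partners was lower in H69M cytoplasmic and 2 in H69M polysomal RNA, against 1.16% and 0.879% of all genes in either direction. COL17A1 was 1 of the polysomal calls (-3.16, adjusted p = 0.0278, and 0.269 without the block). In H69 polysomal RNA the block passed 1 of the 9 other laminin chains as lower, LAMA4 (-1.84, adjusted p = 0.0106, and 0.578 without the block), against 0.108% of all genes in either direction. Knockdown did not pass as a change of loading for any of the 7 genes in either line, where 0% of all genes passed in edgeR with 383 (H69) and 392 (H69M) at an unadjusted p below 0.05, and DESeq2 passed 3 and 1.

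**Figure D5:**
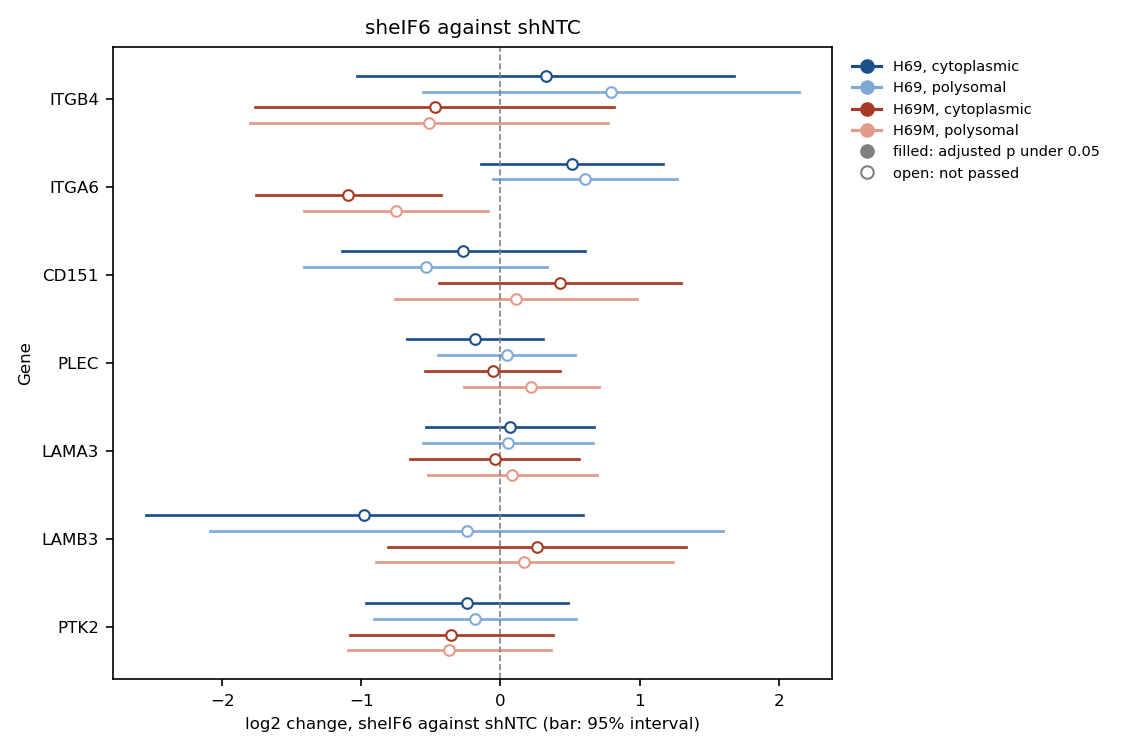
Log2 difference of sheIF6 over shNTC for the 7 genes, by line and fraction, with 95% intervals; open points did not pass the adjusted limit. All points are open. The intervals, which are not adjusted for the number of genes, lie wholly below 0 for ITGA6 in H69M cytoplasmic (-1.76 to -0.43) and polysomal RNA (-1.41 to -0.09).

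As a description over the 16 libraries, log2 CPM of ITGB4 had a Pearson r of 0.92 with LAMB3 and 0.92 with PLEC, and PLEC had 0.95 with LAMB3. These values share the difference between the lines. Within the 8 H69M libraries PLEC and LAMB3 had 0.93, LAMA3 and LAMB3 0.86, ITGB4 and PTK2 0.89, and ITGB4 and CD151 -0.45, where the points share fractions and replicate numbers. Within the 8 H69 libraries the same pairs had 0.13, 0.46, 0.10 and 0.31, with LAMB3 and ITGB4 at few counts there. Among 11995 gene symbols with a mean of at least 100 counts (clone-style, noncoding, pseudogene, ribosomal protein, histone, FAM and ZNF symbols left out), the profiles most like ITGB4 over the 16 libraries were TRIM56 (0.980), TNFAIP2 (0.975), TLN2 (0.971), MAP4 (0.970) and NFATC4 (0.968). Those most like LAMB3 were KIF13A (0.993), LPP (0.992), SH3RF3 (0.988), TRIP6 (0.988) and PTPN14 (0.987).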

How the data were processed

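The authors deposited raw read counts per gene for 16 libraries. Reads were aligned and counted with STAR and HTSeq on GRCh38 (hg38), per the submitters' processing notes, from NEBNext Ultra RNA libraries, per the labels' protocols; versions, gene annotation and strand setting are not given in the sources used here. Cytoplasmic RNA came from a hypotonic lysate with cycloheximide and polysomal RNA from sucrose fractions, per the labels' protocols.

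Counts as deposited were fitted in edgeR 4.0.16 (R 4.3.3) with glmQLFit and glmQLFTest over all 16 libraries, with 1 mean per group, after filterByExpr at a minimum count of 10 (23100 of 56832 genes kept) and TMM scaling. P-values were adjusted by Benjamini-Hochberg over all tested genes, with a limit of 0.05, in each of 17 comparisons. With 2 libraries a group the shared fit has 8 residual degrees of freedom. CPM values are TMM-scaled, an SE is the absolute log2 difference divided by the square root of F, and lengths come from GENCODE release 29. Replicates differed beyond counting noise in every group (chi-square per degree of freedom 22.2 to 203), so each library counts as 1. The script was tested on simulated data.

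Members and lists were chosen with earlier results of these data known. All 7 members were tested in every comparison, but not every value is printed. Other genes were named where they passed the test, where ITGB1, ITGA3 or EIF6 were needed to describe a member, or, for the genes most alike, by the highest Pearson r over the 16 libraries. COL17A1 in the control lines and the block calls of COL17A1 and LAMA4 under knockdown were named after their values were seen. Some genes of the lists are counted but not reported here by name.

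Same-numbered libraries deviated together across genes in every pair of groups within a line (r of 0.168 to 0.280 in H69 and 0.172 to 0.578 in H69M) and not between lines (-0.107 to 0.0457). The replicate number was therefore also fitted as a block within each line. Pairs are nested in lines, so for line differences that error leaves out the spread between pairs. Alternatives were DESeq2 1.42.0, limma-voom (limma 3.58.1), other scaling and filters, each line alone, and leaving out libraries.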

Additional observations from a re-analysis of the deposited data

How the results depend on the processing

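Over 28 settings no member's called difference changed sign. The share of all genes that passed between the lines also depended on the setting. In the main fit it was 30.2% and 34% with shNTC (cytoplasmic, polysomal) and 31.5% and 36.2% with sheIF6. With the replicate block it was 37.5%, 41.6%, 38.9% and 43.9% in that order. The single member calls were counted once per refit, so the counts below are pairs of a call and a refit, not separate calls. With 1 library left out, 355 pairs kept their side of the limit and 13 lost it. Most of these pairs left out a library of neither group compared, so the share kept is no measure of how firm a call is. Under the other settings 204 pairs kept it and 5 lost it. Without a filter on low counts PTK2 with sheIF6 in cytoplasmic RNA was among those lost (-0.94, adjusted p = 0.0518). The numbers of members called between the lines, 5, 4, 7 and 5 (shNTC cytoplasmic, shNTC polysomal, sheIF6 cytoplasmic, sheIF6 polysomal), ranged from 4 to 6, 3 to 4, 5 to 7 and 4 to 5 with 1 library left out, and with the replicate block they were 6, 4, 7 and 5.

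Counts of loading moved most, and so did the share of all genes that passed. In H69 shNTC, H69M shNTC and H69M sheIF6 it was 11.8%, 4.7% and 4.17% in the main fit and 18.6%, 12.2% and 10.6% under DESeq2. The block passed 18.9% in H69 shNTC and 11.1% in H69M shNTC. In H69M alone 0 (shNTC) and 1 (sheIF6) of 20842 genes passed, and in H69 alone 4318 and 3753 of 20585. In H69 shNTC the count of 0 became 1 (CD151) under DESeq2, with the replicate block, in H69 alone and without the H69M shNTC libraries numbered 2, and ranged from 0 to 1 with 1 library left out. In H69 sheIF6 it went from 0 to 1 (CD151) in H69 alone and without those same libraries. In H69M shNTC the count of 1 became 2 under DESeq2, under limma-voom, with the replicate block and without the H69 shNTC libraries numbered 1, and 0 in H69M alone and without the H69M shNTC libraries numbered 2; it ranged from 0 (without H69M shNTC cytoplasmic replicate 2) to 2 (without H69 shNTC polysomal replicate 1 or 2). In H69M sheIF6 the count of 1 became 3 under DESeq2 (LAMA3, LAMB3 and PLEC), 2 under limma-voom and without the H69 shNTC libraries numbered 1, and 0 in H69M alone, and ranged from 1 to 2 with 1 library left out. The line difference in loading went from 0 to 1 (PLEC) under DESeq2, and the knockdown in H69M cytoplasmic RNA from 0 to 1 (ITGA6). The cause of these moves was not tested. With 2 libraries a group, LAMB3 and ITGB4 in H69 rest on few counts, and their folds are the least precise.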
